A study of Mus musculus with 47 samples.

Results

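Cytochrome P450 genes were followed in the liver and spermatozoa of male mice descended from Scml2-knockout (KO) or wild-type fathers. Every symbol that begins with Cyp followed by a digit was taken, which gave 102 of the 23416 genes counted, in 40 subfamilies of 17 families. SCML2 is a Polycomb protein of the male germline encoded on the X chromosome, so sons of KO males carry their mother's intact copy. The fathers were wild-type littermates for Ctrl-F1 males and Scml2-KO (-/y) males for KO-F1 males, both through intracytoplasmic injection (ICSI) of testicular sperm into BDF1 oocytes, and both are given the background BDF2. KO-F2 males came from natural mating of KO-F1 males with C57BL/6 females and are given the background BDF3. Thus no Ctrl-F2 group exists among the libraries used, and KO-F2 differs from the F1 groups in cross, mode of conception and background as well as in generation. All males were 8 to 12 weeks old. RNA-seq was made from liver of Ctrl-F1 (n = 2) and KO-F1 (n = 2) males and from swim-up cauda epididymal spermatozoa of Ctrl-F1 (n = 2), KO-F1 (n = 2) and KO-F2 (n = 2) males.

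P450 enzymes are heme-containing monooxygenases of the endoplasmic reticulum and mitochondria, which receive electrons from NADPH through cytochrome P450 reductase (Por) or adrenodoxin (Fdx1). In hepatocytes the families numbered 1 to 3 oxidise drugs, solvents and steroids, and the Cyp4 family hydroxylates fatty acids. Single-copy members act in bile acid and sterol synthesis and in the breakdown of retinoic acid. Steroid hormone synthesis has P450 members of its own. Many members of families 1 to 3 lie in tandem arrays of recently duplicated genes. They are controlled by nuclear receptors, the aryl hydrocarbon receptor (AHR) and, in rodents, by the sex-specific pattern of growth hormone.

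Library totals ranged from 11339729 to 14278900 counts in liver, from 1503733 to 2778171 counts in F1 spermatozoa and were 11462105 and 8384266 counts in KO-F2 spermatozoa. Values are CPM, counts scaled to a library total of 1e6, and 3 counts, the upper limit that a count of 0 allows, correspond to 0.21 to 0.265 CPM in liver, 1.08 to 2.00 CPM in F1 spermatozoa and 0.262 to 0.358 CPM in KO-F2 spermatozoa. Summed hepatocyte markers stood at 120430 and 120999 CPM in Ctrl-F1 and at 122462 and 137123 CPM in KO-F1 liver, whereas the 8 sperm and late spermatid markers summed to at most 0.265 CPM there. In spermatozoa the same 8 markers summed to 115978 and 129650 CPM in Ctrl-F1, 42656 and 58522 CPM in KO-F1, and 141132 and 145811 CPM in KO-F2. Scml2 itself had no count in liver and 0 to 18 counts in the sperm libraries. The smallest two-sided p that an exact permutation test allows for 2 against 2 libraries is 0.333, so each test below is edgeR's quasi-likelihood test over all genes. A gene was called where it changed by 2-fold or more with an adjusted p (Benjamini-Hochberg) under 0.01.

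Tandem copies matter for reading these counts, because a 75-base read from a stretch shared by 2 copies cannot be counted as unique. On GRCm38, 16 Cyp2c genes lie between chr19:39006940-44029256, 10 Cyp2d genes at chr15:82370527-82794452, 9 Cyp3a genes at chr5:137892933-146114978 and 8 Cyp4a genes at chr4:115242044-115622507. Of all 75-base windows along its transcripts, Cyp2c40 shared 51.1% with another gene, Cyp2c69 43.2%, Cyp2c67 36.0% and Cyp2c68 28.5%. Cyp4a12a and Cyp4a12b shared 40.8% and 41.3%, and Cyp3a41a and Cyp3a41b 95.3% and 90.9%, so that Cyp3a41b, at 0 counts in all 10 libraries, was close to uncountable. By contrast, Cyp4a14, Cyp39a1, Cyp51, Cyp4f18, Cyp2s1 and Cyp2c44 shared none.

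Cyp2c40, Cyp2c67, Cyp2c68 and Cyp2c69 are neighbours that were all highest in KO-F1 replicate 1 liver (below), and their promoters are shown with those of Cyp2c29, the highest Cyp2c gene, and Cyp2e1, the highest P450 gene. Each sequence is the RefSeq GRCm38.p6 window from 250 bases before to 50 bases after the start of a curated transcript, 5′ to 3′. For Cyp2c67 and Cyp2c29 a predicted RefSeq transcript starts farther upstream, inside the window shown. Promoters of 74 of the 102 members were found. Capitals mark TATAAA (the TATA box), GTTAAT or its reverse ATTAAC (the core of an HNF1 site) and AGGTCA or its reverse TGACCT (the core of a nuclear receptor site).
Cyp2c67 (chr19:39648993-39649292, minus strand): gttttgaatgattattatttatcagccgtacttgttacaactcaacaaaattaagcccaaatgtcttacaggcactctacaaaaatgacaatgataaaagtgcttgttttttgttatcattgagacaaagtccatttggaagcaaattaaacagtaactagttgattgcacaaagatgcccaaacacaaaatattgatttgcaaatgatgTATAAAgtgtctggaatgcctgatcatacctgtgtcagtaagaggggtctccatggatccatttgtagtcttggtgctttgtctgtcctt
Cyp2c68 (chr19:39741052-39741351, minus strand): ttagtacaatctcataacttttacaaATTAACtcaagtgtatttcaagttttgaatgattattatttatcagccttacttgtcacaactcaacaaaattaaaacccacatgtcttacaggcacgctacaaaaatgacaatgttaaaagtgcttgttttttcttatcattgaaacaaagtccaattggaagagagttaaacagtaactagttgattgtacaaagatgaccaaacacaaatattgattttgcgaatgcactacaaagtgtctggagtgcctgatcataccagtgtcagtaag
Cyp2c40 (chr19:39812765-39813064, minus strand): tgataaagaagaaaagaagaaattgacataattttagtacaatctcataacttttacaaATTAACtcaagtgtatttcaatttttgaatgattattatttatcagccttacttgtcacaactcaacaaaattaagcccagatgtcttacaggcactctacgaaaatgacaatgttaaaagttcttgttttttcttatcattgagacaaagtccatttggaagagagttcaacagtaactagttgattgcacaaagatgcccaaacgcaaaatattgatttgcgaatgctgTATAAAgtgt
Cyp2c69 (chr19:39886720-39887019, minus strand): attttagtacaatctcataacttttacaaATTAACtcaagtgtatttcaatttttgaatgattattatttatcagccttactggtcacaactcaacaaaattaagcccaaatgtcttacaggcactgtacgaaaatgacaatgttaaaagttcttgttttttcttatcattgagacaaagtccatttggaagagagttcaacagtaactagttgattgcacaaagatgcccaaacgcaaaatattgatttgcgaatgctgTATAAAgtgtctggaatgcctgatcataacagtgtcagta
Cyp2c29 (chr19:39286835-39287134, plus strand): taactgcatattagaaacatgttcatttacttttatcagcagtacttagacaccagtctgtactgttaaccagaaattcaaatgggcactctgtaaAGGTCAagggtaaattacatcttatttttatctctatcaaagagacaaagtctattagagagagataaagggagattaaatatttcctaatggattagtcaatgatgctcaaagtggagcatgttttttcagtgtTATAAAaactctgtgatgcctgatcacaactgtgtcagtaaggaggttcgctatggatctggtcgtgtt
Cyp2e1 (chr7:140763569-140763868, plus strand): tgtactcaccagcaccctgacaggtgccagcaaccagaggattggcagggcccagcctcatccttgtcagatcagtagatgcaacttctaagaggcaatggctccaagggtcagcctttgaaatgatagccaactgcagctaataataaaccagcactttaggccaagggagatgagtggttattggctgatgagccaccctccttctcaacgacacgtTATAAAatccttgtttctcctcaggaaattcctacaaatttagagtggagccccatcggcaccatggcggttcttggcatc
TATAAA, searched on both strands, occurred in 40.5% of 84 P450 promoter windows against 13.6% of all 32851 windows. AGGTCA occurred in 25.0% against 16.3%, and GTTAAT in 11.9% against 7.10%. TTGCNNAA, a core shared by C/EBP and PAR bZip sites, was found in 25.0% against 10.8%, whereas the AHR core GCGTG (21.4% against 32.4%) and TTCNNNGAA, bound by STAT factors (5.95% against 8.30%), were less frequent among P450 windows. Cyp2c68 and Cyp2c69 were identical at 91.1% of aligned columns, and Cyp2c40 and Cyp2c69 at 80.9%. The 84 P450 windows belong to 74 genes and include such close copies, so the motif shares are not taken over independent promoters. The starts used for the tandem genes are not at equivalent bases, so offsets between copies depend on the transcript taken: TATAAA begins at -40 in Cyp2c67, at 11 in Cyp2c69 and at 41 in Cyp2c40, counting the start as 1, and these letters are not in the Cyp2c68 window.

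In liver, P450 genes took 3.89% (95% Wilson interval 3.88 to 3.90) and 3.75% (3.74 to 3.76) of counts in Ctrl-F1, and 3.97% (3.96 to 3.98) and 3.21% (3.20 to 3.22) in KO-F1. KO-F1 replicate 2 was the lowest of the 4 libraries, and KO-F1 replicate 1 the highest, so the groups overlapped. The intervals cover counting error only. Cyp2e, Cyp3a, Cyp2c and Cyp2d, the 4 leading subfamilies, together held 67.2% to 72.7% of the P450 counts of a library.

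**Figure D1:**
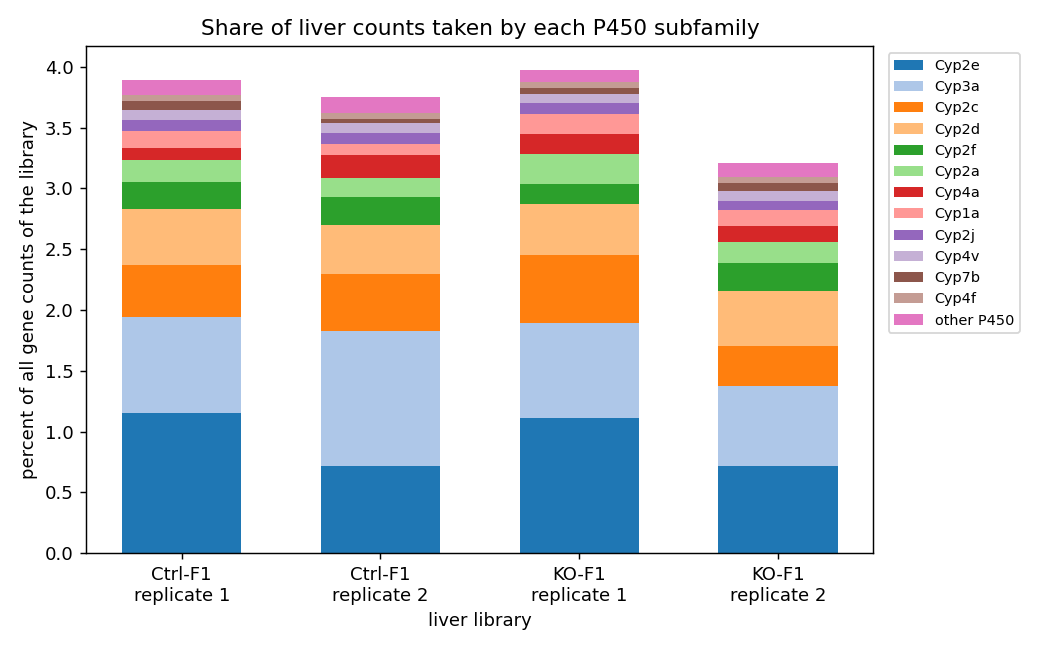
Percent of all gene counts (y axis) taken by the leading P450 subfamilies, with the others summed, in the 4 liver libraries (x axis), as stacked bars that start at 0. The total is 3.21% in KO-F1 replicate 2 and 3.75% to 3.97% in the other 3 libraries, and the Cyp2e and Cyp3a blocks are the tallest in each.

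Levels of single members, set per kilobase of exon so that genes can be compared, spanned a wide range: 4 members averaged over 1000 CPM per kb, 21 between 100 and 1000, 18 between 10 and 100, 16 between 1 and 10, and the others below 1. Cyp2e1, which oxidises ethanol and small solvents, was the highest at 6547 and 4047 CPM per kb in Ctrl-F1 and 6301 and 4077 CPM per kb in KO-F1. Cyp3a11, the pregnane X receptor target that oxidises many drugs, followed at 3269 and 4814 against 3398 and 2718 CPM per kb. These 2 genes overlapped each other but stood above all others in every library. Next came Cyp2d9, a male-biased testosterone hydroxylase, at 1360 and 1156 against 1143 and 1361 CPM per kb, and Cyp2f2, known for activating naphthalene, at 1252 and 1282 against 911 and 1277 CPM per kb. Cyp2c29, an epoxygenase induced through the constitutive androstane receptor, had 895 and 1300 against 892 and 626 CPM per kb. Cyp1a2, an AHR target, had 733 and 465 against 850 and 671 CPM per kb, and Cyp2a5, a coumarin hydroxylase, 573 and 541 against 970 and 513 CPM per kb. Cyp2d26 (mean of 4 libraries 591 CPM per kb), Cyp2d10 (517) and Cyp2a12 (468) completed the 10 highest. Among the 59 members that averaged at least 1 CPM per kb, 56 overlapped the next member in the order over the 4 libraries, so most neighbouring ranks cannot be separated.

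**Figure D2:**
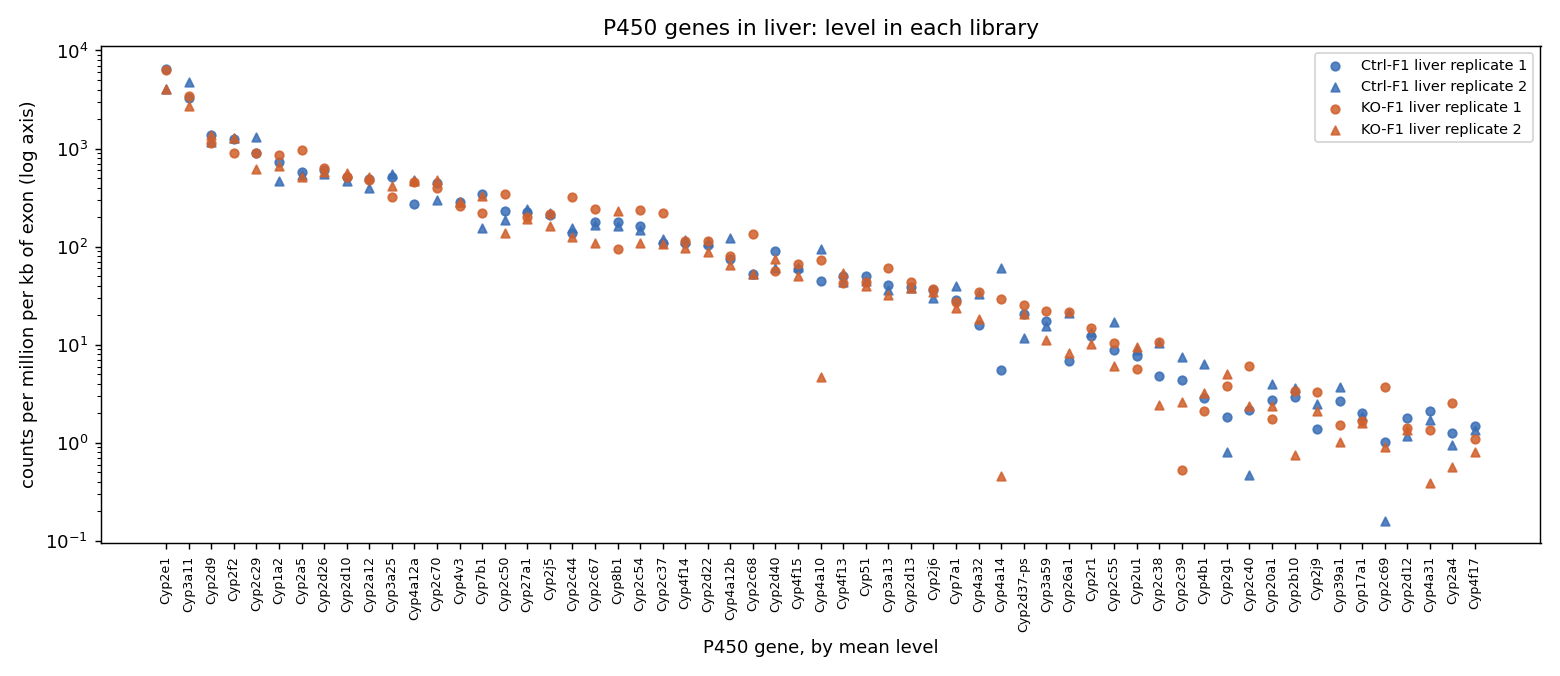
Level in CPM per kb of exon (y axis, log) of the 59 P450 genes that averaged at least 1 CPM per kb in liver (x axis, by mean level), 1 point per library, blue for Ctrl-F1 and orange for KO-F1, circles for replicate 1 and triangles for replicate 2. Cyp2e1 and Cyp3a11 stand above the rest, and Cyp4a10 and Cyp4a14 have the widest spread among members above 10 CPM per kb.

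To ask whether paternal Scml2 deficiency changed hepatic P450 transcripts, KO-F1 liver was compared with Ctrl-F1 liver. Of the 102 members, 69 passed the filter on low counts. The other 33 had 0 counts in all liver libraries (18 members) or at most 41 counts over the 4 libraries (15 members). No P450 gene was called, where 0% of the 11505 genes tested were called. DESeq2 also called 0 of 73 members, where it called 0.172% of 12182 genes. The smallest adjusted p of a member was 0.424 (edgeR), so none was under 0.05, as 0.00869% of all genes were. At an unadjusted p under 0.05, 4 members were higher (5.80% of members against 3.99% of all genes tested) and 3 lower (4.35% against 5.42%), in all 10.1% of members against 9.41% of all genes. The median log2 fold change was 0.01 over the 69 members and -0.01 over all genes tested. The share of members near the background means that these 7 genes, given below, are not a result about P450 genes as a group. Leaving out Ctrl-F1 replicate 1 gave 5 called members (Cyp2c39, Cyp2c40, Cyp2c69, Cyp2g1 and Cyp4a14), where 0.905% of all genes were called. Without KO-F1 replicate 1, Cyp4a10 was called (0.0755% of all genes), and without KO-F1 replicate 2, Cyp2c39 was called (0.0336%). In these fits 1 group has a lone sample, which is assumed to vary like the other group, so they are no independent support.

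**Figure D3:**
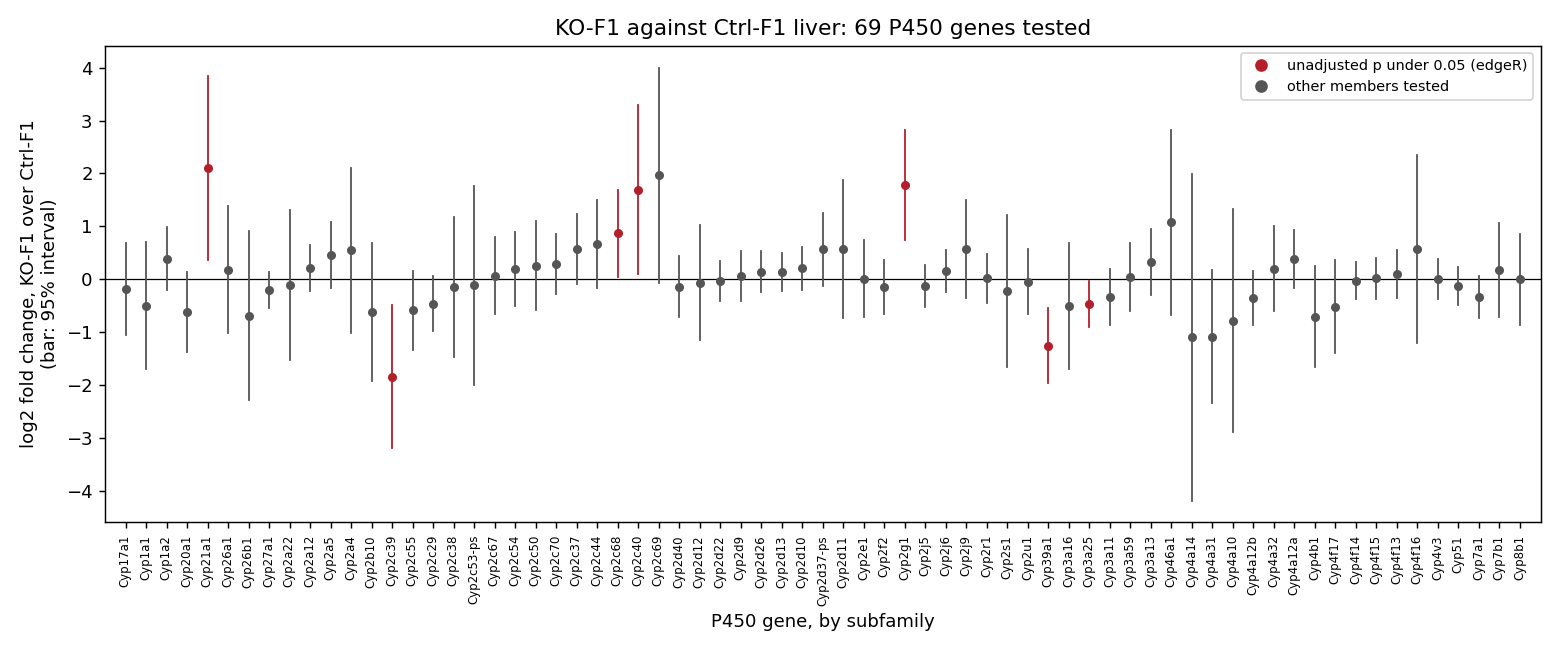
Log2 fold change of KO-F1 over Ctrl-F1 liver (y axis) with its 95% interval from the edgeR fit (bar) for the 69 P450 genes tested (x axis, ordered by subfamily). Red marks the 7 members with an unadjusted p under 0.05, none of which passed the adjusted threshold, and intervals are widest for Cyp4a14 and Cyp4a10.

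Cyp39a1, the oxysterol hydroxylase that acts on 24-hydroxycholesterol and is listed among female-biased members, had the smallest p. It stood at 8.33 and 11.6 CPM in Ctrl-F1 and at 4.74 and 3.17 CPM in KO-F1 liver, without overlap. The log2 fold change was -1.26 ± 0.31 (SE; edgeR adjusted p = 0.424). The gene lies at chr17:43667372-43751431 (plus strand, 12 exons). Cyp2g1, known as a P450 of the olfactory mucosa, had 3.43 and 1.497 CPM in Ctrl-F1 against 7.12 and 9.26 CPM in KO-F1, a log2 fold change of 1.78 ± 0.45 (SE; edgeR adjusted p = 0.435). Since the libraries of both genes did not overlap between groups, leaving out 1 library could hardly turn the direction, and its keeping is no support. With 1 library left out, the log2 fold change ranged from -1.52 to -1.03 for Cyp39a1 and from 1.27 to 2.57 for Cyp2g1. In these fits 1 group has a lone sample.

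Cyp2c39, a retinoic acid hydroxylase, had 13.5 and 23.1 CPM in Ctrl-F1 and 1.64 and 8.02 CPM in KO-F1 liver. Here the log2 fold change was -1.84 ± 0.58 (SE; edgeR adjusted p = 0.485), and the KO-F1 replicates differed from each other by more than the nearest libraries of the 2 groups. Cyp21a1, the steroid hydroxylase of adrenal cortex, had 0.63 and 0.143 CPM against 1.80 and 1.499 CPM, which rests on 9, 2, 22 and 17 counts. Its log2 fold change was 2.11 ± 0.75 (SE; edgeR adjusted p = 0.501), and 12.6% of its windows were shared with its pseudogene copy. Cyp3a25, a Cyp3a member of high level, had 1027 and 1108 CPM against 643 and 824 CPM, with a log2 fold change of -0.47 ± 0.19 (SE; edgeR adjusted p = 0.51). Its unadjusted p rose above 0.05 when Ctrl-F1 replicate 1, Ctrl-F1 replicate 2 or KO-F1 replicate 1 was left out, and that of Cyp21a1 did so without Ctrl-F1 replicate 2, KO-F1 replicate 1 or KO-F1 replicate 2.

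Cyp2c40, a female-biased member, had 3.92 and 0.856 CPM in Ctrl-F1 and 11.0 and 4.23 CPM in KO-F1, so that the groups did not overlap but the lower KO-F1 library was near the higher Ctrl-F1 library (log2 fold change 1.69 ± 0.69 SE, edgeR adjusted p = 0.51), and its unadjusted p rose above 0.05 without KO-F1 replicate 1. Its neighbour Cyp2c68, named here after its values were seen, had 93.8 and 93.8 CPM against 239 and 92.2 CPM, and only 1 KO-F1 library stood apart (edgeR adjusted p = 0.516). Cyp2c69 was likewise highest in KO-F1 replicate 1 and lowest in Ctrl-F1 replicate 2, with 1.82 and 0.285 CPM against 6.54 and 1.59 CPM, but its groups overlapped.

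Counted by library, KO-F1 replicate 1 was the highest of the 4 for 10 of the 14 Cyp2c genes tested and KO-F1 replicate 2 the lowest for 10 of 14. Over all genes tested these shares were 23.4% and 38.5%, and over the 69 P450 genes 40.6% and 50.7%. Reads from windows shared between copies were not counted and are missing from sums as well. The summed Cyp2c40, Cyp2c67, Cyp2c68 and Cyp2c69 had 404 and 376 CPM in Ctrl-F1 against 668 and 283 CPM in KO-F1. Cyp2c37, Cyp2c50 and Cyp2c54 together had 1161 and 1026 CPM against 1834 and 787 CPM. Cyp2c44 (Cyp2c23 in RefSeq), which lies farther along chromosome 19 (chr19:44005022-44029256) and shares no window, had 299 and 343 CPM against 712 and 272 CPM. In each case both Ctrl-F1 libraries lay between the 2 KO-F1 libraries. These tandem sums, Cyp2c44 and Cyp4a31 (below) were picked out after their values were seen. The pattern was not shared by the whole array: Cyp2c29, Cyp2c39 and Cyp2c55 were highest in Ctrl-F1 replicate 2, and Cyp2c70, which forms muricholic acids, was highest in KO-F1 replicate 2 (760 and 513 against 673 and 815 CPM). Cyp2a5 on chromosome 7 also had KO-F1 replicate 1 highest and KO-F1 replicate 2 lowest, with 982 and 927 CPM against 1664 and 880 CPM.

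**Figure D4:**
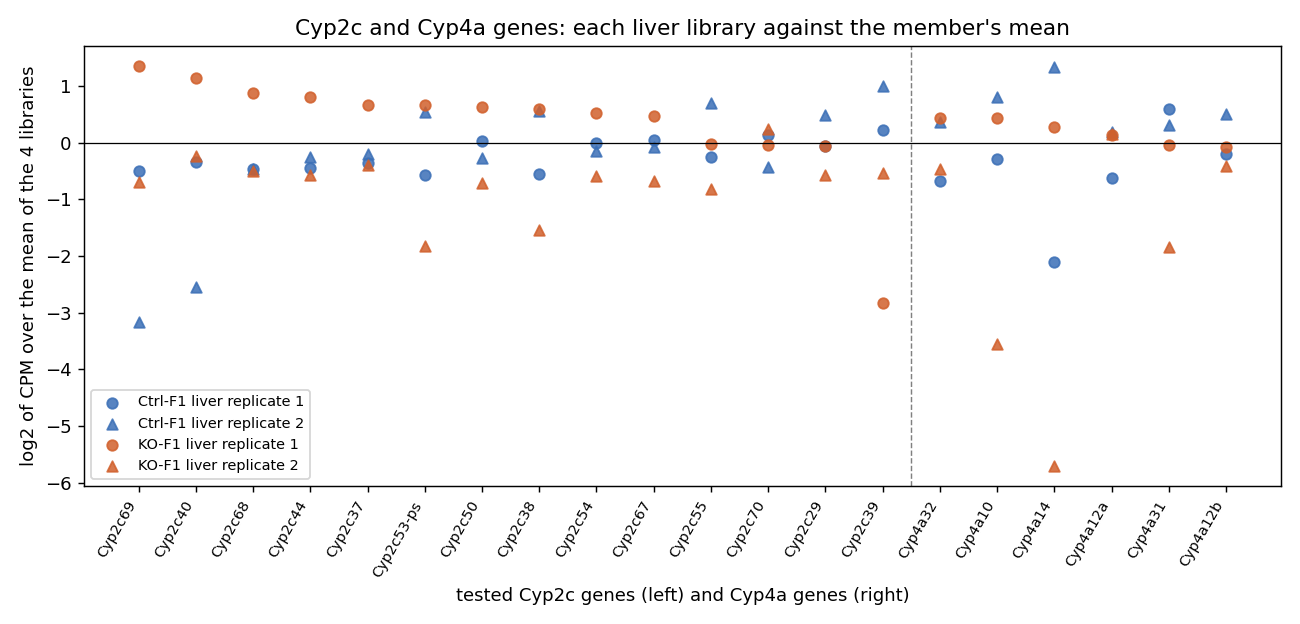
Log2 of the CPM of each liver library over the mean of the 4 libraries (y axis) for the 14 Cyp2c and 6 Cyp4a genes tested (x axis), blue for Ctrl-F1 and orange for KO-F1, circles for replicate 1 and triangles for replicate 2. The orange circle is the highest point for 10 Cyp2c genes, and the orange triangle lies far below the others for Cyp4a10 and Cyp4a14.

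The widest difference between animals was that of Cyp4a14, followed by Cyp2c69 (22.9-fold between the highest and lowest library) and Cyp4a10. Cyp4a10 and Cyp4a14 are omega-hydroxylases of fatty acids and targets of PPARα. Cyp4a14 had 13.9 and 152 CPM in Ctrl-F1 and 72.4 and 1.15 CPM in KO-F1 liver, a 133-fold range over the 4 libraries. Cyp4a10 had 93.4 and 199 CPM against 154 and 9.70 CPM, a 20.5-fold range, and Cyp4a31 had 5.25 and 4.28 CPM against 3.35 and 0.97 CPM. All 3 were lowest in KO-F1 replicate 2. The groups overlapped for Cyp4a14 (log2 fold change -1.09 ± 1.33 SE) and Cyp4a10 (-0.78 ± 0.91 SE), whereas Cyp4a31 lay lower in KO-F1 without overlap (-1.08 ± 0.54 SE, edgeR adjusted p = 0.572). Ppara itself had 256 and 287 CPM against 254 and 173 CPM. Cyp4a12a, the androgen-dependent arachidonic acid hydroxylase, did not follow them, with 662 and 1161 CPM against 1114 and 1124 CPM. Across the 68 members that averaged at least 1 CPM, the highest library exceeded the lowest by a median of 1.95-fold, against 1.48-fold over the 11014 genes that did. For 14 members (20.6%) the range exceeded 4-fold, against 3.11% of these genes. Some of the 14 had few counts, such as Cyp21a1 with 9, 2, 22 and 17. Members and all genes were not matched by level, so part of the wider range can be counting error. Between replicates, the median absolute log2 ratio of the 69 tested members was 0.30 in Ctrl-F1 and 0.56 in KO-F1, against 0.23 and 0.28 over all genes tested.

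By role, the 8 bile acid and cholesterol members were all tested, 0 were called and 1 (Cyp39a1) had an unadjusted p under 0.05, with a median log2 fold change of -0.06. Cyp7a1, the rate-limiting enzyme of the classical pathway, had 118 and 164 CPM in Ctrl-F1 and 114 and 99.6 CPM in KO-F1, a log2 fold change of -0.34 ± 0.17 (SE; 95% interval -0.73 to 0.06). Cyp8b1, which directs synthesis to cholic acid, had 350 and 318 CPM against 185 and 450 CPM, both KO-F1 libraries lying outside the Ctrl-F1 range on opposite sides. Cyp7b1, the male-biased oxysterol hydroxylase, had 752 and 338 CPM against 481 and 710 CPM. The mitochondrial sterol hydroxylase Cyp27a1 had 433 and 473 CPM against 390 and 368 CPM (log2 fold change -0.19 ± 0.15 SE), and the lanosterol demethylase Cyp51 had 216 and 196 CPM against 189 and 173 CPM (-0.13 ± 0.16 SE). Both lay lower in KO-F1 without overlap, as did 25.7% of all genes tested and 13 of 69 P450 genes (18.8%), while 6 members (8.70%) lay higher against 15.7% of all genes (19 members in either direction, 27.5% against 41.4%). Cyp46a1, the cholesterol hydroxylase of neurons, was low at 0.49 and 2.21 CPM against 4.09 and 1.32 CPM.

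Members whose liver level is known to differ between the sexes were summed, all livers here being from males. The male-biased Cyp2d9, Cyp4a12a, Cyp4a12b and Cyp7b1 summed to 3698 and 3838 CPM at the ends of the Ctrl-F1 range and 3676 to 4235 CPM in KO-F1, and the 11 female-biased members to 21.5 to 22.3 CPM and 14.4 to 33.0 CPM. None of the 4 male-biased members was called or had an unadjusted p under 0.05 (median log2 fold change 0.12). Of the 11 female-biased members 6 were tested, with 1 higher (Cyp2c40) and 1 lower (Cyp39a1) at an unadjusted p under 0.05 and none called. Cyp2b9 had 0, 3, 17 and 0 counts, Cyp2b13 0, 0, 1 and 0, Cyp3a41a 1, 4, 0 and 1, and Cyp3a44 8, 22, 7 and 4, and all 4 failed the filter. Cyp2a4, a testosterone hydroxylase, had 2.17 and 1.64 CPM against 4.42 and 0.97 CPM, Cyp3a16 1.75 and 1.64 against 1.23 and 1.06 CPM, and Cyp17a1, which makes androgens, 3.71 and 3.42 against 3.11 and 2.91 CPM. None of these 3 had an unadjusted p under 0.05, and counts of Cyp2a4, with 22.1% of windows shared, are uncertain beside the abundant Cyp2a5.

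Of the 10 nuclear receptor and AHR targets 9 were tested, and none had an unadjusted p under 0.05. The log2 fold change lay below 0 for 7 and above 0 for 2 (median -0.49, against -0.01 over all genes tested). Cyp3a11 had 6711 and 9883 CPM in Ctrl-F1 and 6976 and 5580 CPM in KO-F1, a log2 fold change of -0.33 ± 0.23 (SE). Cyp2b10, the prototypical target of the constitutive androstane receptor, had 5.53 and 6.85 CPM against 6.30 and 1.41 CPM, and Cyp2c29 had 1599 and 2321 CPM against 1594 and 1118 CPM. Of the AHR targets, Cyp1a2 had 1386 and 881 CPM against 1609 and 1270 CPM, Cyp1a1 1.47 and 1.78 CPM against 1.23 and 0.97 CPM, and Cyp1b1 at most 6 counts in a library. Cyp2c55 had 17.6 and 34.01 CPM against 20.6 and 12.0 CPM, and Cyp3a13 120 and 106 against 179 and 94.1 CPM. In most of these genes KO-F1 replicate 2 was the lowest library, as it was for 38.5% of all genes tested and 50.7% of the P450 genes tested.

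The 13 tested members of 19 fatty acid omega-hydroxylases had a median log2 fold change of -0.02, with none at an unadjusted p under 0.05. Cyp4v3, the counterpart of the gene mutated in Bietti crystalline dystrophy, was among the steadiest (1.10-fold between the highest and lowest library), with 830 and 822 CPM against 755 and 829 CPM, and Cyp4f14 had 263 and 280 against 276 and 236 CPM. Of the retinoid and vitamin D members 3 of 6 were tested. Cyp26a1, which breaks down retinoic acid, had 12.2 and 37.4 CPM against 38.6 and 14.6 CPM, and Cyp2r1, a vitamin D hydroxylase, 20.03 and 22.1 against 24.2 and 16.8 CPM. Of the 6 steroid hormone members, Cyp17a1 and Cyp21a1 were tested, and Cyp11a1, Cyp11b1, Cyp11b2 and Cyp19a1 had no count in liver. Other subfamily leaders had interval ends below and above 0: Cyp2j5, an arachidonic acid epoxygenase, had 759 and 809 against 782 and 594 CPM, Cyp2u1 17.9 and 20.5 against 13.2 and 22.1 CPM, Cyp4b1 5.46 and 12.3 against 4.09 and 6.17 CPM, Cyp20a1 6.09 and 8.98 against 3.93 and 5.38 CPM, Cyp2s1 0.77 and 1.497 against 1.14 and 0.705 CPM, and Cyp26b1 1.19 and 2.35 against 0.491 and 1.59 CPM. Cyp26c1, Cyp2t4 and Cyp2ab1 had at most 13 counts in a library and were not tested.

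Summed by subfamily over the uniquely aligned reads, 29 of 40 subfamilies could be tested and none was called. Of these, 3 had an unadjusted p under 0.05 (Cyp39a, Cyp2g and Cyp21a), where 9.41% of all genes had in the fit by gene. Each of the 3 is a subfamily of 1 gene and repeats the result of that gene, so no result about subfamilies is read from them. The Cyp3a total was 7897 and 11132 CPM in Ctrl-F1 and 7844 and 6522 CPM in KO-F1, a log2 fold change of -0.33 (95% interval -0.84 to 0.17). The Cyp2c total was 4269 and 4668 against 5536 and 3303 CPM (0.04, -0.52 to 0.61), and the Cyp2d total 4559 and 4022 against 4254 and 4549 CPM (0.10, -0.35 to 0.55). For Cyp2a the totals were 1804 and 1590 against 2465 and 1733 CPM (0.36, -0.12 to 0.85), for Cyp1a 1387 and 882 against 1610 and 1271 CPM (0.39, -0.20 to 0.98), and for Cyp4a 984 and 1869 against 1604 and 1326 CPM (0.12, -0.49 to 0.72). The Cyp2e interval reached from -0.70 to 0.73.

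The partners of P450 enzymes gave no call either. Por had 452 and 396 CPM in Ctrl-F1 and 442 and 257 CPM in KO-F1, Fdx1 178 and 120 against 205 and 153 CPM, and none of the 8 electron partners had an unadjusted p under 0.05. Alas1, the rate-limiting enzyme of heme synthesis, had 816 and 375 against 1008 and 385 CPM, and 1 of 12 heme genes (Cpox, lower) had an unadjusted p under 0.05. Among 21 tested regulators, Foxa2 was higher and Nr5a2 lower at that level. Beside these results, Socs3, a target of STAT3, had 3.43 and 5.35 CPM in Ctrl-F1 and 14.9 and 41.4 CPM in KO-F1 (edgeR adjusted p = 0.282), and the glucocorticoid-responsive hepatocyte genes Tat and Pck1 lay lower in KO-F1 without overlap. These were picked out after their values were seen. Of the 10 acute phase and STAT3 response genes 8 had a log2 fold change above 0 (median 0.42), with 2 higher and none lower at an unadjusted p under 0.05, and of the 10 hepatocyte markers 7 had a log2 fold change above 0 (median 0.24), with 2 higher and 3 lower at an unadjusted p under 0.05. Kupffer cell and leukocyte markers summed to 129 and 211 CPM at the ends of the Ctrl-F1 range and 132 and 242 CPM in KO-F1, cholangiocyte markers to 21.2 and 28.9 against 18.0 and 26.5 CPM, and endothelial and stellate markers to 144 and 229 against 143 and 192 CPM. The part of any of these in the P450 values was not tested. In bulk tissue, fewer cells of a type and less RNA per cell cannot be told apart.

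In spermatozoa, P450 genes took a far smaller share of counts: 0.0391% (95% Wilson interval 0.0367 to 0.0416) and 0.0151% (0.0133 to 0.0172) in Ctrl-F1, 0.0201% (0.0185 to 0.0219) and 0.0214% (0.0195 to 0.0235) in KO-F1, and 0.0195% (0.0187 to 0.0203) and 0.0212% (0.0203 to 0.0222) in KO-F2. Cyp3a11, Cyp2d9, Cyp2a5 and Cyp2d10, which lead in liver, had no count in any sperm library, and Cyp2e1 had at most 6. Only 6 members had at least 10 counts in every sperm library, namely Cyp1b1, Cyp2a12, Cyp2j13, Cyp2j6, Cyp4a12a and Cyp51. Counts were found only in spermatozoa for 10 members and only in liver for 28, and of the 10 only Cyp2j13, Cyp11a1 and Cyp19a1 reached 18 counts in both libraries of any group.

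The sperm libraries differed in markers of other cells, and this stands beside each result below. The 10 Kupffer cell and leukocyte markers summed to 56.9 and 316 CPM in Ctrl-F1, 113 and 196 CPM in KO-F1, and 2196 and 3634 CPM in KO-F2. Of these, Lyz2 (1909 and 3217 CPM in KO-F2, 47.8 to 269 CPM in F1) and Cd79a (157 and 101 CPM against 0 to 1.65 CPM) were the most abundant, and Clec4f, which defines Kupffer cells, was at 0 in all 6 libraries. Epididymal epithelium markers summed to 8027 and 23578 CPM in Ctrl-F1, 17159 and 17863 CPM in KO-F1 and 1963 and 4259 CPM in KO-F2. Of the 6 Leydig cell markers 5 were at 0 in all sperm libraries, and Star had at most 5.61 CPM.

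Between KO-F1 and Ctrl-F1 spermatozoa, 12 members passed the filter, none was called (0% of 10785 genes were called by edgeR) and none had an unadjusted p under 0.05, against 19.5% of all genes (8.88% higher and 10.6% lower). The libraries did not overlap for 2 members higher in KO-F1 (16.7% against 38.1% of all genes) and 3 lower (25.0% against 17.8%), 41.7% against 55.9% in either direction. Overlap was judged on CPM, whereas fold changes also use TMM scaling, and the scales disagreed for Cyp2j13, higher in KO-F1 by CPM with a fitted log2 fold change of -0.11. DESeq2 gave an adjusted p for only 2 members and called neither, where it called 16.5% of 2796 genes. Cyp51, the lanosterol demethylase, had 107 and 39.9 CPM in Ctrl-F1 and 46.1 and 67.1 CPM in KO-F1. Cyp4a12a had 162 and 21.3 CPM against 68.8 and 31.2 CPM, with Ctrl-F1 replicate 1 alone far above the rest, and its close copy Cyp4a12b had at most 5 counts in any sperm library. Cyp2a12 had 18.5 and 14.6 CPM against 10.8 and 7.67 CPM, without overlap (log2 fold change -1.29 ± 0.81 SE, edgeR adjusted p = 0.432). Cyp2j13 had 7.83 and 12.0 against 12.2 and 12.9 CPM, Cyp2j6 9.48 and 13.3 against 5.04 and 12.9 CPM, and Cyp1b1 5.36 and 10.6 against 3.60 and 17.7 CPM. Cyp4f13 had 2.88 and 2.00 against 5.04 and 6.71 CPM, and Cyp4f15 7.42 and 5.32 against 11.5 and 5.75 CPM. Cyp4v3, named here after its values were seen, had 7.005 and 5.99 CPM against 0 and 2.40 CPM, without overlap (log2 fold change -2.81 ± 1.76 SE, edgeR adjusted p = 0.431). The 95% interval of the log2 fold change reached from -3.12 to 0.57 for Cyp4a12a and from -2.70 to 2.69 for Cyp1b1.

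In KO-F2 spermatozoa, Cyp4f18, which hydroxylates leukotriene B4 and is known from neutrophils, appeared where both F1 groups had none. It had 0 counts in all 4 F1 libraries and 231 and 129 counts (20.2 and 15.4 CPM) in KO-F2. Against a floor of 3 counts per library this is at least 14.1-fold higher than KO-F1 and at least 11.0-fold higher than Ctrl-F1. It passed the filter through KO-F2 alone, the group where it is high, so its p-values add nothing to these counts. With at least 10 counts asked of every library it was not tested. Cyp2a12 was then called against KO-F1, 1 of 8 members where 20.4% of 8855 genes were called. Cyp4f18 was the one P450 gene called in KO-F2 against KO-F1 in the main test, and since it entered through KO-F2 this call is no support. Here 23 members were tested and 2.31% of 13517 genes were called, 2.11% as higher and 0.20% as lower. At an adjusted p under 0.05 there were 6 members (26.1% against 20.4% of all genes), and at an unadjusted p under 0.05 there were 8 higher (34.8% against 22.4%) and 2 lower (8.70% against 14.4%), together 43.5% against 36.8%. The libraries did not overlap for 11 members higher (47.8% against 29.5%) and 8 lower (34.8% against 37.8%), 82.6% against 67.2% in all. Members at or near 0 in KO-F1, such as Cyp4f18, Cyp11a1, Cyp2s1 and Cyp4f39, entered through KO-F2 and had to be higher there, so no result about the members is read from these counts. The call of Cyp4f18 did not hold without KO-F2 replicate 1. Against Ctrl-F1 no member was called by edgeR (0% of 13149 genes), with 6 of 21 members (28.6%) at an unadjusted p under 0.05 against 14.9% of all genes, while DESeq2 called 2 of 17 members, Cyp4f18 and Cyp51, and 2.63% of all genes. Of the 6, 4 were higher (19.0% against 9.07%) and 2 lower (9.52% against 5.83%), and libraries did not overlap for 7 members higher (33.3% against 33.8%) and 6 lower (28.6% against 15.4%), 61.9% against 49.2% in all. Of the members higher, Cyp4f18, Cyp11a1 and Cyp2s1 had 0 counts in Ctrl-F1. They entered through KO-F2 and had to be higher there, so no result is read from these counts or from the DESeq2 call of Cyp4f18. Cyp4f18, at chr8:71988482-72009668 (minus strand, 13 exons), lies apart from the Cyp4f array on chromosome 17 and shares no window with another gene. Liver had at most 7 counts of it.

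Cyp11a1 and Cyp2s1 were also at or near 0 in F1 spermatozoa and counted in KO-F2. Cyp11a1, the side-chain cleavage enzyme that starts steroid synthesis, had 0 counts in all F1 libraries and 107 and 50 (9.34 and 5.96 CPM) in KO-F2, at least 6.07-fold higher than KO-F1 and at least 4.73-fold higher than Ctrl-F1. No p-value is given for it, since it passed the filter through KO-F2 alone. Cyp2s1, a P450 of epithelia, had 0, 0, 0 and 1 count in F1 and 39 and 75 in KO-F2, at least 3.82-fold above Ctrl-F1. Cyp4f39, Cyp2u1 and Cyp46a1 overlapped between KO-F2 and Ctrl-F1 in CPM. Cyp4f39, which hydroxylates very long fatty acids of skin ceramides, had 12.4 and 0 CPM in Ctrl-F1, none in KO-F1, and 4.89 and 3.94 CPM in KO-F2. Cyp2u1 had 0.412 and 4.66 CPM, 0 and 0.959 CPM, and 3.84 and 7.99 CPM in that order of groups, and Cyp46a1 had 4.94 and 5.32 CPM, 1.80 and 2.88 CPM, and 5.06 and 14.2 CPM. Cyp2d26, at 3.71 and 0.665 CPM, 1.80 and 0 CPM, and 5.58 and 10.4 CPM, lay above both F1 groups.

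Cyp2a12, a hydroxylase of bile acids in liver, had 43.0 and 41.5 CPM in KO-F2, above 18.5 and 14.6 CPM in Ctrl-F1 and 10.8 and 7.67 CPM in KO-F1, without overlap. The log2 fold change was 2.61 ± 0.41 against KO-F1 (SE; edgeR adjusted p = 0.0108, just over the threshold) and 1.19 ± 0.39 against Ctrl-F1 (SE; adjusted p = 0.239). Against KO-F1 it was called with DESeq2, no filter, at least 10 counts in every library, the replicate block, the bias-adjusted test and thinning. These alternatives, given at the end, called 6.06% to 20.4% of all genes. With DESeq2 size factors (2.83% of all genes called) it was not called. Per kilobase of exon it was the highest member in KO-F2 at 25.4 ± 0.638 CPM per kb (SD, n = 2), followed by Cyp4a12a at 11.8 ± 0.359 and Cyp4f18 at 10.4 ± 1.98 CPM per kb, the last 2 overlapping. In Ctrl-F1 the order was Cyp4a12a (37.8 ± 41.1), Cyp51 (16.9 ± 10.9) and Cyp2a12 (9.95 ± 1.66 CPM per kb), and these overlapped.

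Cyp51 went the other way, with 16.3 and 10.3 CPM in KO-F2, below all 4 F1 libraries. Its log2 fold change was -2.59 ± 0.54 against Ctrl-F1 (SE; edgeR adjusted p = 0.17) and -1.67 ± 0.45 against KO-F1 (SE; adjusted p = 0.0412). Cyp2j6 lay lower as well, at 3.93 and 3.34 CPM (-1.82 ± 0.72 against Ctrl-F1, SE; adjusted p = 0.322). Cyp2j13, at 4.62 and 3.22 CPM, and Cyp4f15, at 2.18 and 1.31 CPM, lay below all 4 F1 libraries, with edgeR adjusted p of 0.432 and 0.356 against Ctrl-F1. Cyp2r1 had 3 and 4 counts in KO-F2 against 8 and 11 in KO-F1 and 9 and 0 in Ctrl-F1. Cyp4a12a in KO-F2 had 29.1 and 27.9 CPM, within the Ctrl-F1 range, and Cyp1b1 had 7.59 and 9.54 CPM. Both comparisons use the same KO-F2 libraries. The sample descriptions place both KO-F2 libraries on 1 sequencing run and name no run for the F1 sperm libraries, so the part of sequencing run was not tested. The part of the leukocyte and epididymal transcripts in these differences was not tested.

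**Figure D5:**
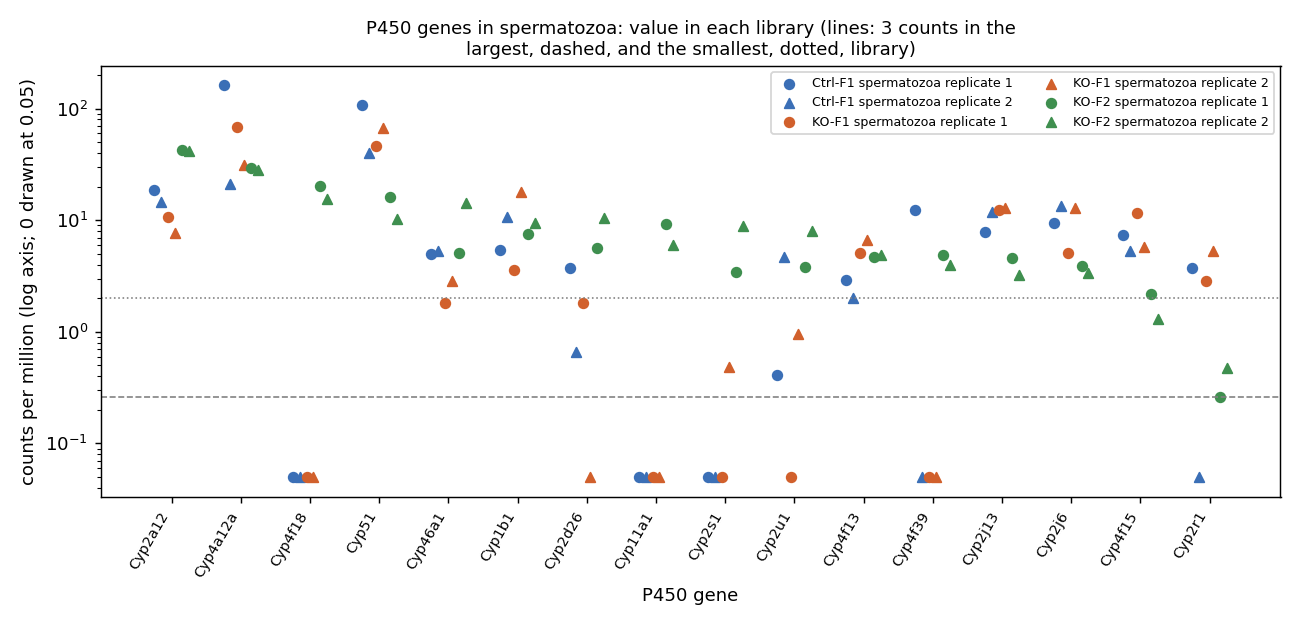
CPM (y axis, log, with 0 drawn at 0.05) of the 16 P450 genes named in spermatozoa (x axis, by mean in KO-F2) in each library, blue for Ctrl-F1, orange for KO-F1 and green for KO-F2, circles for replicate 1 and triangles for replicate 2, with lines at 3 counts in the largest and the smallest library. Cyp4f18 and Cyp11a1 are at 0 in all F1 libraries, and the KO-F2 points of Cyp51 lie below those of F1.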

How the data were processed

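RNA-seq of liver and spermatozoa was used as the deposited tables of raw counts per gene, made by the authors, 1 table a library. Per the labels and the study's methods, single-end 75-base reads were aligned with HISAT2 2.1.0 to GRCm38 (mm10) and uniquely aligned reads were counted with featureCounts of the Subread package. Its version, the gene annotation and the strand setting are not given in the sources used here. Liver libraries were made with a stranded mRNA kit and sperm libraries by cDNA preamplification, so sperm counts are not independent molecules and intervals cover counting error only. Groups have 2 biological replicates. Chromatin and embryo samples of the series were not analysed here.

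Of 23420 lines, 2 symbols listed more than once were left out. Counts were tested per comparison with edgeR 4.0.16 in R 4.3.3 (TMM, default filterByExpr, glmQLFit and glmQLFTest), with Benjamini-Hochberg adjustment over all genes tested. The standard error is the log2 fold change over the root of F. DESeq2 1.42.0 and the other alternatives are given at the end. The script was tested on simulated data. Exon lengths, positions and promoters come from RefSeq for GRCm38.p6, and shared 75-base windows from GENCODE transcript sequences. Genes were named by a rule: all members of the bile acid, sex-biased and receptor target lists, the highest member of each subfamily, the 10 highest in liver, and members with an unadjusted p under 0.05 whose libraries do not overlap (up to 8 a direction in liver, 5 in spermatozoa), and in spermatozoa those with at least 10 counts in both libraries of a group (at most 10, by mean CPM). The members and lists were chosen with earlier results of these data known.

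Replicate numbers did not pair the samples: deviations of same-numbered liver libraries correlated at -0.16 over genes, and those of sperm libraries at -0.01 to 0.16.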

Additional observations from a re-analysis of the deposited data

How the results depend on the processing

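No P450 gene was called in liver, and this count stayed at 0 with each other test, size factor, filter, replicate block and threshold tried, and under 2 added after seeing the data (a bias-adjusted edgeR test and a crossed block). Few genes of any kind were called in liver: 0.172% with DESeq2, 0.161% with no filter, 0.0094% with at least 10 counts in every library and 0.0174% with the replicate block. Leaving out 1 library gave 0 to 5 called members in liver, and 0 to 1 called subfamily totals against 0. Members with an unadjusted p under 0.05 numbered 7, 16 with no filter on low counts (84 members tested) and 13 to 22 with 1 library left out. In the main fit these were 10.1% of members against 9.41% of all genes. For the other fits the share of all genes at that p is not given, so no result about P450 genes is read from the higher counts. In spermatozoa, KO-F1 against Ctrl-F1 stayed at 0 throughout. DESeq2 called 16.5% of all genes there with 2 members tested. The filter of at least 10 counts in every library called 3.2% with 6 members tested, and no filter called 0.672% with 51. KO-F2 against Ctrl-F1 gave 2 with DESeq2 (of 17 tested), 2 with the replicate block (of 21, 2.75% of all genes called) and 0 to 3 with 1 library left out (3 of 30 where 1.84% of all genes were called). KO-F2 against KO-F1 gave 1 in the main test, 3 of 21 with DESeq2 (16.2% of all genes called), 6 of 63 with no filter (13.6%), 2 of 23 with the replicate block (6.06%), 6 at an adjusted p under 0.05, and 0 to 7 with 1 library left out (7 of 29 where 19.2% of all genes were called). In the same comparison, the filter of at least 10 counts in every library gave 1 of 8 (20.4%). Of the alternatives added after seeing the data, the bias-adjusted test gave 2 of 23 (10.9%) and thinning to the smallest library 2 of 12 (8.12%). The cause of these shifts was not tested. The replicate number is shared in name only, and the block raised the calls over all genes from 0 to 362 in KO-F2 against Ctrl-F1 and from 312 to 819 in KO-F2 against KO-F1. Of the 45 named liver genes that were tested, 25 kept their direction in every alternative. The 6 with an unadjusted p under 0.05 and no overlap were among these 25. They were chosen for libraries that do not overlap, so leaving out 1 library could hardly turn their direction, and its keeping is no support. The direction turned with an unadjusted p under 0.05 for Cyp4a14 (1.38 without Ctrl-F1 replicate 2, range with 1 library left out -6.01 to 1.38) and for Cyp8b1 and its subfamily total (both -0.83 without KO-F1 replicate 2, range -0.83 to 0.54). In spermatozoa 3 counts are up to 2.00 CPM, and lower levels cannot be told from 0 there. With 1 library left out, its group has a lone sample that is assumed to vary like the other group.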
